A study of Mus musculus with 12 samples.

Results

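The trimethylation of histone H3 at lysine 4 (H3K4me3) was followed in mouse intestinal organoids given arachidonic acid (AA) or vehicle. All peaks that the deposited table lists for H3K4me3 and the peak caller MACS2 were taken, 36552 in number, and the 58548 H3K4me3 peaks of a second caller, SEACR, served as a check. The table holds 274593 peaks in all, for 3 histone marks. Each H3K4me3 peak has a score in 4 of the 12 libraries: 2 from AA-treated and 2 from vehicle-treated organoids.

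The AA organoids had received 25 µM AA for 6 days, and the vehicle organoids had received vehicle over the same 6 days. Both groups were grown from isolated mouse crypts in Matrigel, in a medium with EGF, Noggin, R-spondin, the GSK3 inhibitor CHIR-99021 and the ROCK inhibitor Y-27632. In CUT&RUN, the assay used, an antibody against the mark directs a nuclease that cuts out the DNA beside it. The design text of the series names organoids lacking a prostaglandin receptor (Ptger) and a prostaglandin E2 arm, whereas the labels of these libraries name no genotype, so the genotype is not known here. Scores headed as control in the table were taken as vehicle. The labels do not state whether the libraries within a group are separate cultures or animals, so a p-value measures only how much these libraries varied, which may be technical. In bulk chromatin, a change in the share of cells that carry the mark and a change in the mark per cell cannot be told apart.

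H3K4me3 is written by the SET1 and MLL (COMPASS) methyltransferase complexes and marks nucleosomes around the starts of active genes, most strongly where the promoter is rich in CpG dinucleotides. It can also lie together with the Polycomb mark H3K27me3 at promoters that are held at low activity. AA is an omega-6 fatty acid released from membrane phospholipids and the precursor of prostaglandins. In the injured intestine, the epithelium can take on a fetal-like state with genes such as Anxa1 and Ly6a, and prostaglandin E2 and YAP signalling have been linked with it.

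The promoters of some of the genes whose start carried a changed peak are shown first, because their CpG content differs widely. Each is the 300 bases around the start of the gene, 5′ to 3′ on the strand of the gene, from RefSeq on GRCm38.p6 (the assembly of mm10), with CpG dinucleotides in capitals. The first 4 belong to peaks that were higher in AA and the last 4 to peaks that were lower in AA. They lie at chr19:20390622-20390921 (minus strand, Anxa1), chr8:62123144-62123443 (minus, Anxa10), chr3:90612644-90612943 (plus, S100a6), chrX:140907358-140907657 (plus, Vsig1), chr2:62412182-62412481 (minus, Dpp4), chr3:144932480-144932779 (minus, Clca4b), chr19:55127189-55127488 (minus, Gpam) and chr2:126552774-126553073 (plus, Slc27a2).
Anxa1: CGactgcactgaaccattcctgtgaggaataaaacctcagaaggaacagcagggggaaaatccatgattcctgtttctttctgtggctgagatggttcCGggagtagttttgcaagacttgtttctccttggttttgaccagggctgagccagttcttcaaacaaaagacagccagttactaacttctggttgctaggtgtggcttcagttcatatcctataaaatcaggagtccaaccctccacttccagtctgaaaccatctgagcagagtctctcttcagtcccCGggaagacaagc
Anxa10: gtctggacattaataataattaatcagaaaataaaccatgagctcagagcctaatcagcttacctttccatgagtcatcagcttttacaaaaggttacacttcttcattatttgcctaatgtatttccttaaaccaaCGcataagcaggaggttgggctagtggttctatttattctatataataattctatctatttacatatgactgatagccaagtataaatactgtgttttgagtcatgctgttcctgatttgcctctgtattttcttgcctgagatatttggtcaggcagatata
S100a6: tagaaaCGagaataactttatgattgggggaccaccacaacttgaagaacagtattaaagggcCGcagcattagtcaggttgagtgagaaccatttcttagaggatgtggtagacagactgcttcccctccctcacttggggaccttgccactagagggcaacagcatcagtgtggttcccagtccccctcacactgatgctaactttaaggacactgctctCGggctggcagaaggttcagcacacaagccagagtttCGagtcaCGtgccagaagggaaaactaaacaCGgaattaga
Vsig1: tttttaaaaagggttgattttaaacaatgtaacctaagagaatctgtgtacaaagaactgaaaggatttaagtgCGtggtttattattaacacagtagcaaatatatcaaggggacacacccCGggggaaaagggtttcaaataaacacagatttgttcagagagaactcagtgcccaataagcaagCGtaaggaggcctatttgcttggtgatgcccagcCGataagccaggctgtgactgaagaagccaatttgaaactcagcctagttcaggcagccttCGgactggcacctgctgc
Dpp4: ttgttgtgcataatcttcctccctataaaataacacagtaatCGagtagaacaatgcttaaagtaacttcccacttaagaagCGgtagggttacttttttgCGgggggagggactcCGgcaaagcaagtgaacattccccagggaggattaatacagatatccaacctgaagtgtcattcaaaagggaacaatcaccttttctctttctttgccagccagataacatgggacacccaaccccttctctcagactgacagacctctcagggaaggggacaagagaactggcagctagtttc
Clca4b: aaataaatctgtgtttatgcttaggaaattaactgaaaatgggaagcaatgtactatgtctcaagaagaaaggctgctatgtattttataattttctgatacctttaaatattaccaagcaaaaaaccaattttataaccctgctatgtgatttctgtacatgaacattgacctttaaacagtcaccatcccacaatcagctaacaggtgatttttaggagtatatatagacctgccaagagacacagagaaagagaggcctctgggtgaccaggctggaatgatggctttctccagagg
Gpam: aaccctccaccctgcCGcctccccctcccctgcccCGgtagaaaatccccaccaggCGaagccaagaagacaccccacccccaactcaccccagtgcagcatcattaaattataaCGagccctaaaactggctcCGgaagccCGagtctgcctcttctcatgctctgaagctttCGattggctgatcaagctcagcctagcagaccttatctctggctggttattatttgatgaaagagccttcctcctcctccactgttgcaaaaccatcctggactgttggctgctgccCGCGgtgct
Slc27a2: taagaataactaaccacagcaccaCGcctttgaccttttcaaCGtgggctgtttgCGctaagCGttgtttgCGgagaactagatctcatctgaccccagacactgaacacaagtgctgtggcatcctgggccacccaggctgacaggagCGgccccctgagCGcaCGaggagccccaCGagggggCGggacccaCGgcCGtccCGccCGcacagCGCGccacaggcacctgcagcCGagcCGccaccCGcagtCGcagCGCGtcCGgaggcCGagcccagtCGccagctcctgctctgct
Anxa10 holds 1 CpG, Anxa1 3, Vsig1 5 and S100a6 6. Among the genes with a lower peak, Clca4b holds none, Dpp4 4, Gpam 9 and Slc27a2 25.

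The score of a peak behaved as a mean fragment coverage per base that was scaled by 1 factor per library. Before scaling, the median MACS2 peak was covered by 8.52 and 7.12 fragments per base in the AA libraries, against 16.8 and 11.1 in the vehicle libraries, so the AA group was the shallower one. Across peaks, Spearman's correlation was 0.906 between the AA libraries and 0.894 between the vehicle libraries, and 0.849 to 0.864 between libraries of different groups. The AA libraries stood at −35.7 and −72.4 on the first principal component of the log2 scores (53.0% of the variance), and the vehicle libraries at 53.5 and 54.6. The peaks fitted the labelled tissue: 14 of 16 epithelial markers had a peak at a gene start or end, against 4 of 16 fibroblast, 2 of 15 endothelial, muscle and glial and 1 of 15 blood cell markers. The median fibroblast marker with a peak scored 0.401 and 0.303 in AA against 0.599 and 0.693 in vehicle, and no marker of these 3 other lists passed the test, while the part of other cells in the results was not tested.

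The first question was whether the whole H3K4me3 landscape moved. With the deposited scaling, peaks at gene ends (within 1 kb of the start or end of a gene) were mostly higher in AA, and peaks elsewhere mostly lower. Among 16676 gene-end peaks the median change, AA minus vehicle on the log2(score + 0.109) scale, was 0.27, and 76.9% of these peaks lay above 0. Among 10663 peaks in gene bodies the median was −0.23, with 34.3% above 0, and among 9212 peaks outside genes −0.25, with 32.9% above 0. The 13039 gene-end peaks at an annotated start had a median of 0.28, and the other 3637 gene-end peaks one of 0.22. The median gene-end peak stood at log2 levels of 0.839 and 0.610 in the AA libraries, against 0.491 and 0.432 in the vehicle libraries, so the groups did not overlap. The smallest p that 2 libraries against 2 can give is 0.333, and the exact two-sided permutation test gave that value.

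The shift also followed the strength of the peak. From the weakest to the strongest of 10 level bins, the median change ran from −0.51 to 0.45 at gene ends, from −0.88 to 0.36 in gene bodies and from −0.89 to 0.22 outside genes. In the strongest gene-end bin the median scores were 2.73 and 2.42 in AA, against 1.89 and 1.82 in vehicle. In the weakest bin outside genes they were 0.120 and 0.0942 in AA, against 0.384 and 0.216 in vehicle. The contrast between strong and weak peaks was thus wider in both AA libraries, which are also the shallower pair, and the part of depth in it was not tested.

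**Figure D1:**
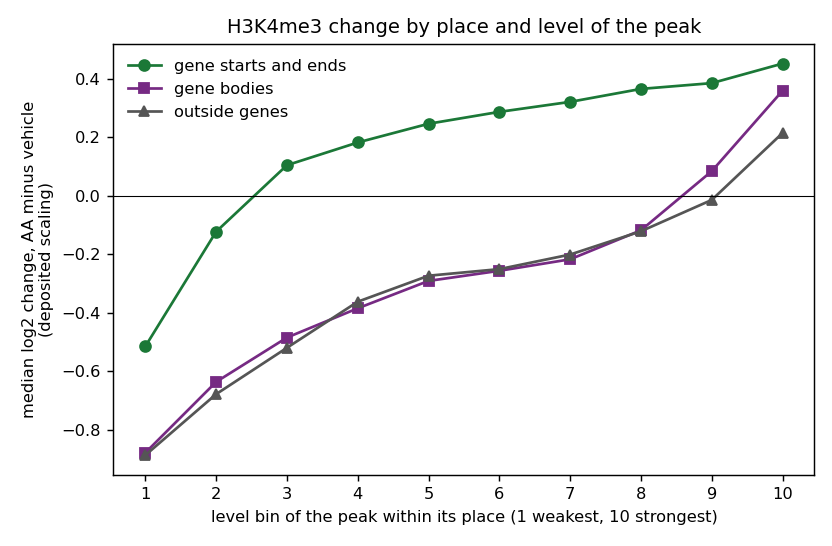
Median log2 change of the H3K4me3 score (vertical axis), AA minus vehicle with the deposited scaling, in 10 bins of peak level (horizontal axis, weakest first) for peaks at gene starts and ends, in gene bodies and outside genes, 1 line per place. The medians climb with the level in all 3 places, from −0.51 to 0.45 at gene ends and from −0.89 to 0.22 outside genes.

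With this scaling, limma with Benjamini-Hochberg adjustment called 1895 peaks higher (5.18% of the 36551 tested) and 387 lower (1.06%) in AA at an adjusted p under 0.05. Of those higher, 1392 (73.5%) lay at gene ends, where they made up 8.35% of the tested peaks. These counts moved with single libraries. Without AA replicate 1 there were 1627 higher and 1876 lower, without AA replicate 2 6638 and 860, without vehicle replicate 1 213 and 8, and without vehicle replicate 2 87 and 6.

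Each peak was then set against peaks of the same place and level, by centring each library within each place and level bin. In this relative comparison limma called 63 peaks higher (0.172%) and 62 lower (0.17%) in AA, at adjusted p-values from 0.0207 to 0.0493. They fell to 52 genes each, with 3 higher and 4 lower peaks that had no gene within 50 kb. The relative changes ran from 0.68 to 3.37 among the higher peaks, with a median of 1.67, and from −0.75 to −2.55 among the lower ones, with a median of −1.11. The median higher peak was short, 349 bp, against 647.5 bp for the lower ones and 637 bp for all peaks. It scored 1.57 in AA and 0.482 in vehicle, and the median lower peak 1.00 in AA and 1.87 in vehicle.

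In all of these the groups did not overlap on the score, as was the case for 33.1% of all tested peaks in the higher and 24.3% in the lower direction. With the groups apart, leaving out 1 library could hardly turn a sign, so an unchanged sign is no test of these peaks. All 63 higher and 53 of the 62 lower peaks were also called with the deposited scaling. SEACR peaks are scored in the same 4 libraries, so a call there is no independent evidence. Several MACS2 peaks can also share 1 SEACR peak. Of all SEACR peaks, 0.882% were called higher and 0.709% lower. For 47 of the higher and 45 of the lower MACS2 peaks called here, the overlapping SEACR peak was called in the same direction. Leaving out 1 library turned no sign among them, and 23 higher and 8 lower peaks passed in all 4 such fits. Most lower calls did not pass when 1 vehicle library, whichever it was, was left out. In those fits the spread comes from the AA libraries alone, so a lost call there is no measure of a smaller change. At Slc27a2 the change was −1.50 in the full fit and −1.50 without vehicle replicate 1 or 2. Near Cps1 it was −1.72 in the full fit, −1.94 without vehicle replicate 1 and −1.49 without vehicle replicate 2. Over all peaks, 381 were higher and 373 lower without AA replicate 1, 163 and 296 without AA replicate 2, 56 and 19 without vehicle replicate 1, and 57 and 17 without vehicle replicate 2. With limma's plain variance model, without its trend and robust options, no peak passed in either scaling, while 4025 had an unadjusted p under 0.05 in the relative comparison.

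At gene ends, 23 peaks were higher in AA relative to their place and level (0.138%) and 31 lower (0.186%). The genes named below by size had a peak that was called in both scalings and, in the same direction, in the overlapping SEACR peak.

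Anxa10 encodes an annexin, a family of calcium-dependent membrane-binding proteins, and is known from gastric epithelium. Its peak at chr8:62122025-62122720 scored 1.46 and 1.32 in AA, against 0.140 and 0.159 in vehicle. Both AA libraries were far above both vehicle libraries, with a relative change of 2.64 ± 0.28 (SE, n = 2 per group; limma adjusted p = 0.0207), which passed without any 1 library.

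S100a6 encodes a small calcium-binding protein. Its peak at chr3:90613469-90614252 scored 1.76 and 1.42 in AA, against 0.2 and 0.178 in vehicle. The groups lay far apart, and the change of 2.61 ± 0.25 (SE, n = 2 per group; limma adjusted p = 0.0207) passed in all 4 fits without 1 library. A second called peak beside it changed by 2.04.

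Anxa1, an annexin with anti-inflammatory roles that marks fetal-like intestinal epithelium, had a peak at chr19:20389358-20390706 across its start. It scored 1.47 and 1.35 in AA, against 0.359 and 0.322 in vehicle. The values were close within each group, and the change was 1.87 ± 0.23 (SE, n = 2 per group; limma adjusted p = 0.0289), passing without any 1 library.

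Vsig1, an adhesion protein of the immunoglobulin family known from stomach, scored 0.876 and 0.994 in AA, against 0.1 and 0.0994 in vehicle, at chrX:140907630-140907847. The change was 2.81 ± 0.39 (SE, n = 2 per group; limma adjusted p = 0.0421), and it did not pass without AA replicate 2. Gprc5a, a retinoic acid-induced orphan receptor, scored 1.71 and 0.784 in AA, against 0.259 and 0.243 in vehicle. AA replicate 1 was much the higher of the AA libraries here, and the change of 1.93 (limma adjusted p = 0.0483) passed only without AA replicate 2.

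The other rises at gene ends named by size had the same form. Those of Stk25, Batf2 and Ern2 lay at an end of the gene with no annotated start within 1 kb. The same held for the rises at Gprc5a and Ereg and the fall at Gng11. In all, 11 of the 23 rises at gene ends were of this kind. The strongest start peak of Stk25 changed by −0.09 (limma adjusted p = 0.853). Pmp22, a tetraspan membrane protein, scored 1.17 and 0.606 in AA, against 0.141 and 0.108 in vehicle. Syt14, of the synaptotagmin family, scored 1.13 and 0.810 in AA, against 0.195 and 0.208 in vehicle. Stk25, a kinase of the STE20 family, scored 1.41 and 1.52 in AA, against 0.322 and 0.298 in vehicle. Their relative changes were 2.52, 2.27 and 2.02, and those of Syt14 and Stk25 passed without any 1 library, while that of Pmp22 did not pass without AA replicate 1. Batf2, a leucine-zipper partner of the AP-1 family, and Ern2, the endoplasmic reticulum stress sensor of mucus-producing epithelium, changed by 2.13 and 2.08. Batf2 did not pass without AA replicate 1 or vehicle replicate 1, nor Ern2 without either AA library.

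Ereg encodes epiregulin, a ligand of the EGF receptor. Its peak scored 1.57 and 1.29 in AA, against 0.514 and 0.349 in vehicle. Each AA library was above each vehicle library, with a change of 1.44 ± 0.23 (SE, n = 2 per group; limma adjusted p = 0.0483) that did not pass without AA replicate 2 or vehicle replicate 2. Myof, which encodes the membrane-repair protein myoferlin, scored 1.90 and 1.51 in AA, against 0.568 and 0.626 in vehicle, a change of 1.27 ± 0.18 (SE, n = 2 per group; limma adjusted p = 0.0421) that did not pass without vehicle replicate 1.

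Away from gene ends, 25 gene-body peaks (0.234%) and 15 peaks outside genes (0.163%) were higher in AA. Gcnt3 encodes the enzyme that builds core 2 and core 4 branches on mucin O-glycans. Its strongest called peak by change scored 3.35 and 2.52 in AA, against 0.780 and 0.441 in vehicle. All 6 peaks assigned to the gene had a relative change above 0 and 4 of them passed, at 2.03, 2.01, 1.96 and 1.23, each at a limma adjusted p of 0.0207 and each without any 1 library. The 4 called peaks span 4326 bp and overlap 1 and the same SEACR peak, so they are not independent.

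Sox21, a transcription factor of the SoxB2 group, was the gene nearest to a pair of called peaks. The first scored 2.67 and 1.46 in AA, against 0.246 and 0.353 in vehicle, and the second 2.27 and 1.74 in AA, against 0.440 and 0.450 in vehicle. Every AA value was several times every vehicle value, and the changes were 2.49 and 1.92. A peak in Rbpms, an RNA-binding protein, scored 1.68 and 1.53 in AA, against 0.316 and 0.213 in vehicle (relative change 2.43). The larger Sox21 peak and the Rbpms peak had a limma adjusted p of 0.0207 and passed without any 1 library.

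The largest change of all called peaks was in Syt16, another synaptotagmin gene, with scores of 0.886 and 0.973 in AA, against 0.104 and 0.00156 in vehicle. The change was 3.37 ± 0.48 (SE, n = 2 per group; limma adjusted p = 0.0421) and did not pass without AA replicate 2. A peak in Anxa3, a further annexin, scored 1.37 and 0.662 in AA, against 0.0978 and 0.125 in vehicle (change 2.77), and did not pass without AA replicate 1. On chromosome 13, beside a block of histone genes, 4 peaks assigned to Vmn1r223, Zfp322a and Abt1 were called higher within 116573 bp. All 10 tested peaks of this stretch had a change above 0, with a median of 1.22, and the largest, nearest to Zfp322a, scored 1.31 and 0.550 in AA, against 0.111 and 0.0633 in vehicle, and did not pass without AA replicate 1.

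Among the further rises, seen in the list of all called peaks and not chosen by size, were Plaur (1.69), the urokinase receptor, Runx1 (1.80) and Runx2 (1.60), transcription factors of the Runt family, Fut2 (1.92), a fucosyltransferase of the gut surface, and Lama5 (1.22), a laminin chain of the basement membrane. The peaks of Plaur and Runx1 passed without any 1 library, and those of Runx2, Fut2 and Lama5 did not. In the overlapping SEACR peaks it was Runx2, Fut2 and Lama5 that were called, while Plaur (0.59, limma adjusted p = 0.0800) and Runx1 (0.28, limma adjusted p = 0.0804) were not. Runx1 had 7 peaks, of which 6 were higher in both AA libraries than in both vehicle libraries and 1 passed the relative test. Plac8, a small cysteine-rich protein, had 9 peaks, of which 5 were higher without overlap and 1 passed, at 1.43, but not in the overlapping SEACR peak (0.13, limma adjusted p = 0.369). Over all tested peaks 33.1% were higher without overlap, as were 7391 of 12125 genes at their strongest gene-end peak. The non-overlap counts of Runx1 and Plac8 are thus no result about these genes.

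**Figure D2:**
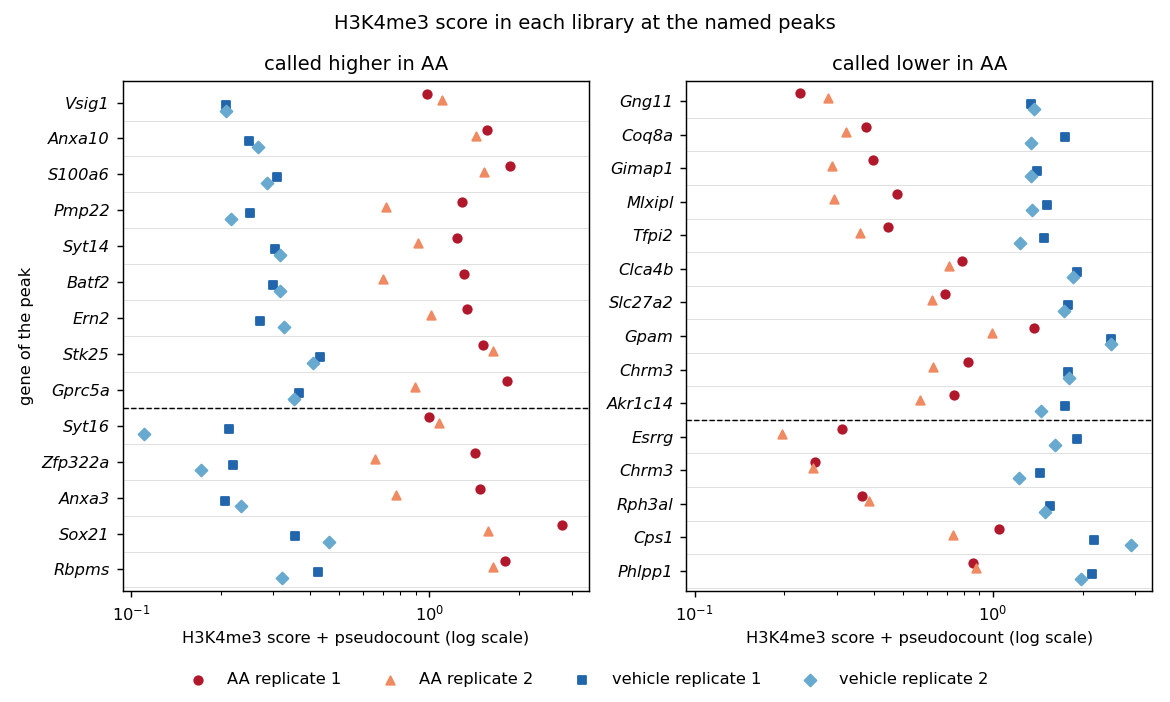
H3K4me3 scores plus the pseudocount, on a log axis, at the named peaks called higher (left) and lower (right) in AA, 1 point per library, with gene-end peaks above the dashed line and other peaks below it. The AA points lie all right of the vehicle points in the left panel and all left of them in the right panel, as for Anxa10 with scores of 1.46 and 1.32 in AA and 0.140 and 0.159 in vehicle.

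Of the 31 falls at gene ends, the largest was at Gng11, a gamma subunit of heterotrimeric G proteins, with scores of 0.116 and 0.172 in AA, against 1.23 and 1.27 in vehicle. The change was −2.33 ± 0.33 (SE, n = 2 per group; limma adjusted p = 0.0422). Its neighbour Tfpi2, an inhibitor of serine proteases, scored 0.336 and 0.251 in AA, against 1.38 and 1.12 in vehicle (change −1.65).

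Coq8a, which acts in the synthesis of coenzyme Q, had 2 called peaks at its starts. The first scored 0.268 and 0.213 in AA, against 1.64 and 1.24 in vehicle (change −2.03, limma adjusted p = 0.0289), and the second 1.19 and 0.940 in AA, against 1.75 and 1.90 in vehicle (change −0.97). Mlxipl encodes ChREBP, the carbohydrate-responsive transcription factor of lipogenic genes. It scored 0.368 and 0.184 in AA, against 1.41 and 1.24 in vehicle, with a change of −1.83 (limma adjusted p = 0.0421). In each of these peaks both vehicle libraries were above both AA libraries.

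Gpam, the mitochondrial acyltransferase that opens glycerolipid synthesis, scored 1.27 and 0.885 in AA, against 2.38 and 2.39 in vehicle. Its change of −1.42 ± 0.13 (SE, n = 2 per group; limma adjusted p = 0.0207) passed without any 1 library. The fall was at 1 peak of the gene: of its 7 peaks 3 had a change above 0, and a further start peak scored 1.37 and 1.33 in AA, against 0.847 and 0.815 in vehicle (0.46, not called). Slc27a2, a very-long-chain acyl-CoA synthetase, scored 0.581 and 0.518 in AA, against 1.68 and 1.62 in vehicle. Both groups were tight, and the change was −1.5 ± 0.18 (SE, n = 2 per group; limma adjusted p = 0.0289).

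Clca4b, of the family of calcium-activated chloride channel regulators, scored 0.678 and 0.601 in AA, against 1.80 and 1.75 in vehicle. The change was −1.51 ± 0.17 (SE, n = 2 per group; limma adjusted p = 0.0207). Chrm3, the M3 muscarinic acetylcholine receptor, scored 0.714 and 0.521 in AA, against 1.68 and 1.69 in vehicle (change −1.40). Akr1c14, an aldo-keto reductase, scored 0.632 and 0.462 in AA, against 1.63 and 1.34 in vehicle (change −1.37). Gimap1, a GTPase known from lymphocytes, scored 0.289 and 0.180 in AA, against 1.29 and 1.23 in vehicle (change −1.91). In all of them the groups were apart by more than their spread.

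Dpp4, a brush-border peptidase of enterocytes, had its peak at chr2:62410400-62412326. It scored 1.04 and 0.704 in AA, against 1.79 and 1.53 in vehicle. The change was −1.05 ± 0.17 (SE, n = 2 per group; limma adjusted p = 0.0486). From the list of all called peaks, Ugt1a1, which conjugates bilirubin, carried a strong peak in both groups, with 3.10 and 2.73 in AA, against 4.41 and 4.17 in vehicle (change −0.99), and passed without any 1 library. Cyp2c55, a cytochrome P450 enzyme, scored 0.826 and 0.556 in AA, against 1.64 and 1.44 in vehicle (change −1.15).

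Further called falls, in the list of all called peaks, were at Pank1 (−1.43), the first enzyme of coenzyme A synthesis, Elf3 (−0.83), an epithelial ETS factor, the body of Pigr (−0.89), the receptor that carries immunoglobulin A across the epithelium, and Dbi (−0.75), an acyl-CoA-binding protein. Each of these, and Cyp2c55, failed to pass in at least 1 fit without 1 library. Dbi, Elf3 and Pank1 were not called in the overlapping SEACR peak (limma adjusted p = 0.0630, 0.803 and 0.0542), and with the deposited scaling Dbi and Elf3 were not called in the MACS2 peak either (limma adjusted p = 0.225 and 0.111). At Elf3 the MACS2 peak scored 1.72 and 1.46 in AA, against 2.45 and 1.96 in vehicle, whereas the overlapping SEACR peak scored 1.34 and 1.19 in AA, against 1.16 and 0.962 in vehicle.

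Away from gene ends, 16 gene-body peaks (0.15%) and 15 peaks outside genes (0.163%) were lower in AA. The largest fall lay inside Esrrg, an orphan nuclear receptor of mitochondrial metabolism. The peak scored 0.203 and 0.0882 in AA, against 1.80 and 1.5 in vehicle. The change was −2.55 ± 0.28 (SE, n = 2 per group; limma adjusted p = 0.0207), and the start of the gene, with 0.830 and 0.723 in AA, against 1.5 and 1.53 in vehicle, fell as well (−1.05). Of the 16 peaks of this gene, 15 had a change below 0, 14 were lower without overlap of the groups, 10 passed with the deposited scaling and 2 in the relative comparison. A peak inside Chrm3 fell by 2.09 on the log2 scale, with 0.145 and 0.141 in AA, against 1.33 and 1.11 in vehicle. All 5 peaks of Chrm3 were lower without overlap. Over all tested peaks 24.3% were lower without overlap. As lower, 1.06% passed with the deposited scaling and 0.17% in the relative comparison. Both genes were picked for their called peaks, so these counts are a description.

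Rph3al, a Rab effector of secretory granules, scored 0.256 and 0.276 in AA, against 1.45 and 1.38 in vehicle (change −1.76). The peak nearest to Cps1, the first enzyme of the urea cycle, which the small intestine uses to make citrulline, scored 0.937 and 0.628 in AA, against 2.08 and 2.80 in vehicle. Its change of −1.72 (limma adjusted p = 0.0207) passed without any 1 library. Of the 7 peaks assigned to Cps1, 5 had a change below 0 and 2 above it. Phlpp1, a phosphatase that acts on Akt, scored 0.748 and 0.770 in AA, against 2.04 and 1.87 in vehicle (change −1.33). Most of the 16 named falls did not pass when 1 vehicle library was left out, where the spread comes from the AA libraries alone. Gpam and Cps1 were the exceptions.

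**Figure D3:**
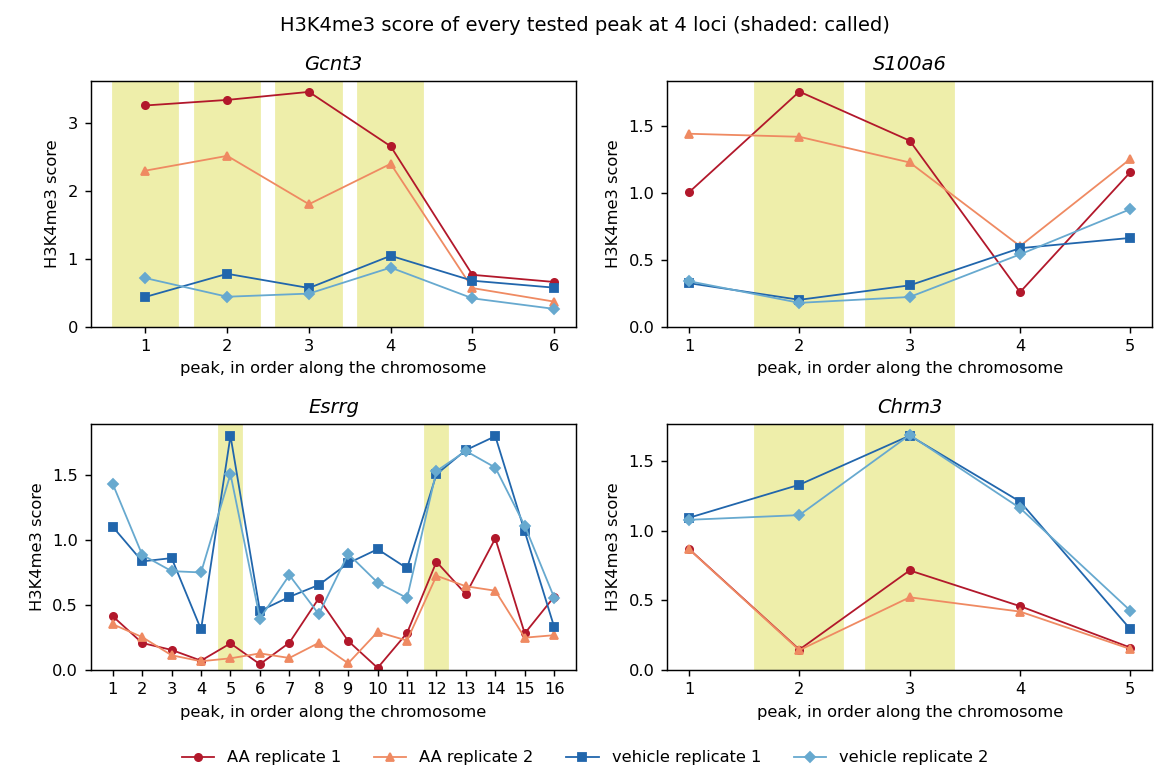
H3K4me3 score in each of the 4 libraries at every tested peak assigned to Gcnt3, S100a6, Esrrg and Chrm3, with peaks in order along the chromosome and those called relative to place and level shaded. At Gcnt3 the AA lines lie above the vehicle lines at the 4 called peaks, and at Esrrg they lie below them without overlap at 14 of 16 peaks. Over all tested peaks 24.3% were lower without overlap.

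Called peaks away from an annotated start were set beside the strongest start peak of their gene. They were chosen for passing the test and the start peaks were not, so the sizes below are a description. For 22 called-higher peaks in 21 genes that also had a peak at an annotated start, none of the strongest start peaks was called, and their median change was 0.14, against 1.45 for the called peaks. In Plaur the called peak changed by 1.69 and the start by 0.13, in Runx1 by 1.80 and the start by 0.20, and in Epha2, a receptor tyrosine kinase, by 0.86 and the start by −0.01. For 22 called-lower peaks in 21 genes the strongest start peak was called in 2, Chrm3 and Esrrg, and the medians were −0.17 at starts and −1.02 at the called peaks. The strongest start peak of S100a6 stood at 1.68 and that of Rph3al at −0.90, neither passing, and each gene had another start peak that was called (2.61 and −1.17). In Sema7a, a semaphorin, the called peak fell (−1.12) while the start stood at 0.78. Of these peaks 10 higher and 12 lower ones lay within 5 kb of the start.

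A number of genes were read whatever they did. Ptgs2, the inducible prostaglandin synthase COX-2, scored 0.883 and 0.571 in AA, against 0.190 and 0.118 in vehicle. Both AA libraries were higher, but the relative change of 2.14 ± 0.38 (SE, n = 2 per group) had a limma adjusted p of 0.0631, while with the deposited scaling it was 0.0394. The overlapping SEACR peak was called higher (1.27, limma adjusted p = 0.0270). Clu, a marker of the revival stem cell, changed by 0.35 (limma adjusted p = 0.663). Ptger4, a prostaglandin E2 receptor, scored 2.81 and 2.24 in AA, against 2.03 and 1.77 in vehicle, a relative change of −0.06 (limma adjusted p = 0.877). Both AA scores were above both vehicle scores, but no more than at gene-end peaks of the same level.

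The stem cell genes Lgr5, Olfm4 and Ascl2 had relative changes of −0.03, −0.58 and −0.17, and Cd44, a surface glycoprotein of crypt cells, 0.10. Lef1 (−0.80, limma adjusted p = 0.16) and Notum (−0.72, limma adjusted p = 0.231), a factor and an inhibitor of the Wnt pathway, did not pass in MACS2 peaks either. Both were called lower in the overlapping SEACR peak (−0.67 and −0.69, limma adjusted p = 0.0316 and 0.0469). Actb and Gapdh, genes used in all cells, had −0.10 and 0.06. Ly6a, Msln and Slc2a2 had no MACS2 peak at a gene end.

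Gene lists were read at the strongest gene-end peak of each gene, of which 12125 were tested; among these 11 (0.0907%) were higher and 20 (0.165%) lower relative to place and level. Of the list of fetal-like and regenerative epithelium, 28 genes long, 23 had a gene-end peak, and 4 of these (17.4%) were higher, Anxa10, Anxa1 and Ereg among them, and none lower. The median change of the list was 0.21, against 0.005 over all genes, and 18 of 23 lay above 0. Members that did not pass include S100a6 at its strongest peak (1.68, limma adjusted p = 0.0730), Areg, another EGF receptor ligand (0.83, limma adjusted p = 0.0587), Il33, an alarmin cytokine (1.29, limma adjusted p = 0.0934), and the gap junction gene Gja1, which went the other way (−1.01). With the deposited scaling 14 of the 23 were higher (60.9%, against 8.73% of all genes) and none lower. In the overlapping SEACR peaks 11 were higher relative to place and level, against 0.808% of all genes. The study's title names stemness under AA, and this list was drawn up with earlier results of these libraries known, so its count is not independent evidence of a direction.

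Of the YAP/TAZ targets, 1 of 17 was higher, Myof, and none lower, with a median of 0.13. Ptpn14, a phosphatase that binds YAP, had 1.72 but did not pass (limma adjusted p = 0.0631). Of brush-border enzymes and enterocyte transporters, none of 23 was higher and 1 lower, Dpp4. The aminopeptidase gene Anpep (−1.14, limma adjusted p = 0.0556) and the meprin gene Mep1a (−0.90) did not pass, and Vil1, the gene of the microvillus protein villin, stood at 0.07. With the deposited scaling 2 of these 23 were higher and 2 lower. In the overlapping SEACR peaks, relative to place and level, 3 YAP/TAZ targets were higher and 3 brush-border genes lower. This compares with 0.808% of all genes higher and 1.75% lower.

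No member passed the relative test in either direction among 17 crypt stem cell genes (median −0.03), 16 Wnt targets and inhibitors (−0.17), 12 genes of prostaglandin synthesis, receptors and transport, 20 of PPAR signalling and fatty acid oxidation (0.07), or 17 intestinal identity factors (0.13). With the deposited scaling, 5 of the stem cell genes, 5 of the PPAR genes and 10 of the identity factors were higher and none of them lower. With that scaling the median over all genes was itself 0.29, and 8.73% were higher and 0.396% lower. In the overlapping SEACR peaks, relative to place and level, 2 stem cell genes and 2 Wnt genes were lower. In those peaks 1 prostaglandin gene and 1 identity factor were higher, against 0.808% of all genes higher and 1.75% lower.

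The promoters printed above were compared with all promoters that had a tested peak at their start. Of 28 promoters with a called-lower peak, 9 (32.1%) had an observed-to-expected CpG ratio above 0.6, against 75% of the 10420 promoters with a tested peak, and the median number of CpG in 300 bases was 7.5, against 22. Of 12 promoters with a called-higher peak, 7 (58.3%) were above that ratio, with a median of 16.5 CpG. Because the called peaks differ in level, the weakest 4 of 10 level bins were also read alone: 3 of 15 lower and 7 of 12 higher promoters were above the ratio, against 66.1% of all in those bins. CpG-poor promoters were thus common among the falls, as in Clca4b and Dpp4, with exceptions such as Slc27a2.

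Short motifs were searched on both strands of the same 300 bases, and none of the 4 contains another. The CDX motif TTTATNG was found in 3 of 12 higher and 5 of 28 lower promoters, against 6.51% of all with a tested peak. The TEAD motif GGAATG was found in 2 and 5, against 11.4%, the AP-1 motif TGANTCA in 1 and 2, against 4.56%, and the HNF4 motif CAAAGTCCA in 0 and 1, against 0.422%. Among the promoters printed, Anxa1 and Dpp4 hold the CDX and the TEAD letters, Clca4b the TEAD letters and Anxa10 the AP-1 letters. A match is a description of the sequence and no evidence of binding.

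H3K27ac, a mark of active promoters and enhancers, and H3K27me3 were measured in other libraries of the same organoid treatments, 2 per group each, and were read at SEACR peaks that overlap the called H3K4me3 peaks. H3K27ac had a relative change above 0 at 33 of 44 overlapped higher peaks (75%) and at 15 of 61 overlapped lower peaks (24.6%), against 50.2% of all overlapped H3K4me3 peaks. H3K27me3 had a change above 0 at 3 of 19 higher and 13 of 23 lower peaks, against 47.1%. At gene ends this was 0 of 9 higher peaks, with a median of −0.37, and 9 of 10 lower peaks, with a median of 1.04, against 48.3% of all gene-end peaks overlapped. Some called peaks of a gene, such as those of Coq8a, overlap the same H3K27me3 peak and were each counted. At several of the lower gene-end peaks vehicle H3K27me3 was under 1 fragment per base. Hmga2, for example, scored 0.169 and 0.175 in AA, against 0.0551 and 0.0290 in vehicle. A region listed for its AA signal would show a change above 0 by selection, so this split is a description and no test. The MACS2 peaks of H3K27me3 were few and did not show this split: they overlapped no called H3K4me3 peak at gene ends, and over all places 2 higher peaks, both with a change above 0, and 6 lower peaks, 1 of them above 0.

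Few of these passed a test of their own. For H3K27me3, 0.0382% of all SEACR peaks were higher and 0.0542% lower in AA. H3K27me3 at Coq8a scored 0.327 and 0.350 in AA, against 0.0477 and 0.0590 in vehicle (1.41, limma adjusted p = 0.0016). At Slc27a2 it scored 0.311 and 0.294 in AA, against 0.0532 and 0.0662 in vehicle (1.22, limma adjusted p = 0.0162). At both starts, where H3K4me3 was lower, H3K27me3 was higher in both AA libraries. The vehicle scores at both starts were under 1 fragment per base, which was worth 0.0581 and 0.0809 in the H3K27me3 vehicle libraries. At a peak in Apool, a mitochondrial inner membrane protein, the marks fell together: H3K4me3 changed by −0.80, and H3K27me3 scored 0.713 and 0.781 in AA, against 0.849 and 0.918 in vehicle (−0.37, limma adjusted p = 9.03e-05).

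At the Rbpms peak H3K27me3 was lower, with 0.0738 and 0.109 in AA, against 0.319 and 0.310 in vehicle (−1.33, limma adjusted p = 0.0003). The AA scores there were near 1 fragment per base, which was worth 0.0943 and 0.0766 in the H3K27me3 AA libraries. Near Sox21 H3K27me3 was lower as well, with 0.242 and 0.237 in AA, against 0.337 and 0.338 in vehicle (−0.55, limma adjusted p = 0.0082). At Dpp4 it scored 0.231 and 0.215 in AA, against 0.0529 and 0.0294 in vehicle, and at the Esrrg start 0.226 and 0.338 in AA, against 0.0401 and 0.0057 in vehicle. The AA libraries were higher at both, but neither passed (limma adjusted p = 0.367 and 0.0724), and the vehicle scores at both were under 1 fragment per base. H3K27ac, with 0.0851% of all SEACR peaks higher and 0.0931% lower, was higher at S100a6 (0.535 and 0.448 in AA, against 0.301 and 0.229 in vehicle, 0.54, limma adjusted p = 0.0439) and lower at Gpam (0.341 and 0.296 in AA, against 0.490 and 0.392 in vehicle, −0.54, limma adjusted p = 0.0353).

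**Figure D4:**
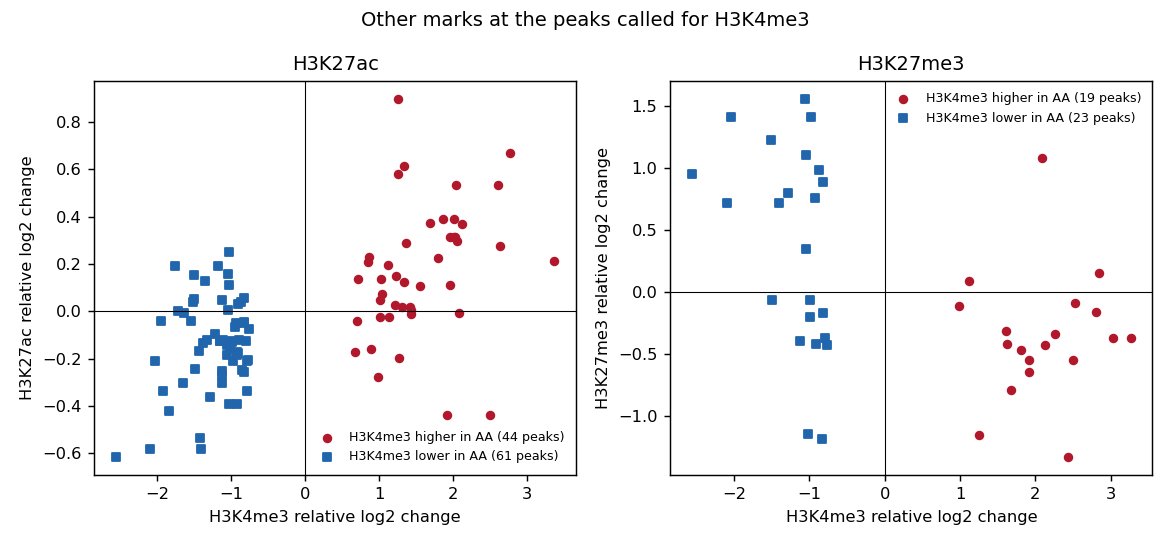
Relative log2 change of H3K27ac (left) and H3K27me3 (right), AA minus vehicle, at overlapping SEACR peaks against the relative log2 change of the called H3K4me3 peak, 1 point per H3K4me3 peak. H3K27ac lies above 0 at 33 of 44 higher and 15 of 61 lower peaks, and H3K27me3 at 3 of 19 higher and 13 of 23 lower peaks.

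The called peaks were also sorted by which of the other marks' SEACR peaks they overlapped, classes that were chosen after the values were seen. Of 3199 tested H3K4me3 peaks that overlapped H3K27me3 and no H3K27ac, 14 were higher (0.438%) and none lower. Of 2746 that overlapped both marks, 5 were higher (0.182%) and 23 lower (0.838%). Of 27075 that overlapped H3K27ac alone, 39 were higher and 38 lower. At some of the lower peaks with both marks, such as those of Coq8a, Slc27a2 and Dpp4, vehicle H3K27me3 was under 1 fragment per base. They may belong to the class with both marks only through H3K27me3 in AA, so class and change are not independent. The absence of falls among peaks with H3K27me3 alone was not stable. With the replicate number as a block in the fit, 47 of that class were higher and 10 lower, and after quantile normalization 13 and 4. Falls in that class also appeared when either AA library was left out. Peaks with H3K27me3 alone were the weaker ones, with median scores of 0.420 in AA and 0.527 in vehicle, against 1.07 in AA and 1.04 in vehicle for those with both marks. The 23 lower peaks numbered 6 without vehicle replicate 1 and 6 without vehicle replicate 2. Over all gene-end peaks Spearman's correlation between the relative changes of H3K4me3 and those of the other mark was 0.07 for H3K27ac (13339 peaks) and −0.18 for H3K27me3 (3321 peaks); the peaks of a mark share its 4 libraries.

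The peaks of chromosome X stood apart from those of every autosome, which was noticed after the values were seen. Its 899 peaks had a median relative change of 0.24, with 74.6% above 0, against medians of −0.013 to 0.014 on the autosomes. Relative to place and level, the median X peak lay at 0.068 and 0.16 in the AA libraries, against −0.114 and −0.134 in the vehicle libraries. On the deposited scale its median score was 0.844 and 0.674 in AA, against 0.646 and 0.626 in vehicle, while the median autosomal score was 0.935 and 0.727 in AA, against 0.875 and 0.863 in vehicle. The groups thus did not overlap on chromosome X. The median was 0.25 at gene ends, 0.26 in gene bodies and 0.17 outside genes, and above 0 in all 13 windows of 10 Mb with 20 or more peaks. It was 0.094 in SEACR peaks, against −0.011 to 0.018 on the autosomes. By place it was 0.12 at gene ends and 0.095 outside genes in SEACR peaks, but −0.0006 in gene bodies. In SEACR peaks the H3K27ac median on the chromosome was −0.014, within the −0.017 to 0.0066 of the autosomes. In the 60 MACS2 peaks of H3K27ac on the chromosome it was −0.074, below the −0.034 to 0.045 of the autosomes. The H3K27me3 median in SEACR peaks was −0.079, below the −0.011 to 0.063 of the autosomes. The labels name no sex, and the cause was not tested. On chromosome X 3 H3K4me3 peaks were called higher and 1 lower. The rises were at Vsig1, Bcor (1.47), a corepressor, and Efnb1 (1.03), an ephrin. Those of Bcor and Efnb1 were not called in SEACR peaks (limma adjusted p = 0.269 and 0.337).

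**Figure D5:**
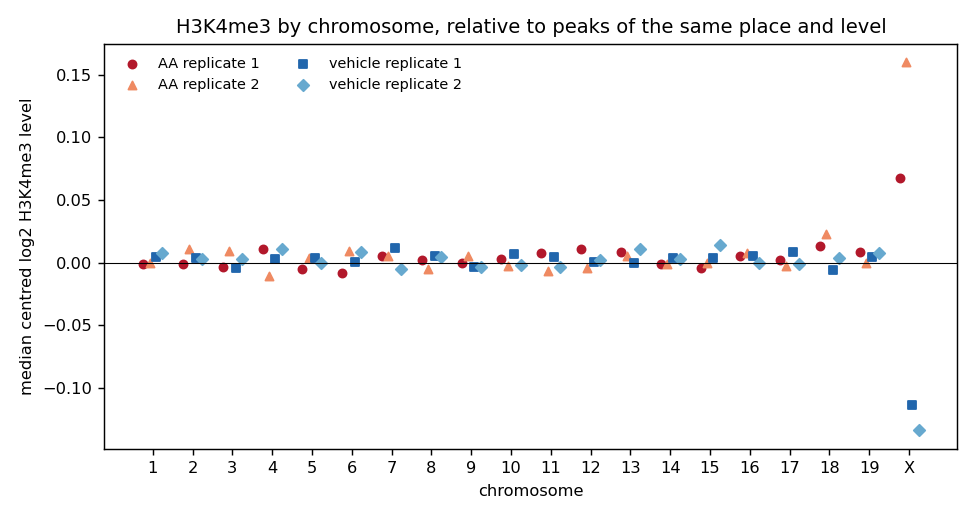
Median centred log2 H3K4me3 level of the peaks of each chromosome in each library, relative to peaks of the same place and level, 1 point per library. On every autosome the 4 points lie near 0, and on chromosome X the AA libraries lie at 0.068 and 0.16 and the vehicle libraries at −0.114 and −0.134.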

How the data were processed

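The authors deposited 1 table with a signal per peak and library, and this signal is a peak score. Per the submitters' processing notes, MACS2 and SEACR called the peaks on mm10. Not given in the sources used here are the aligner, the caller versions and the scaling. Multiplied by the peak's length, 100% of MACS2 scores below 1000 steps were whole multiples of a step fixed within each library, within 0.1 step, so the score divided by the step was read as raw coverage.

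Peaks with a mean raw coverage of at least 1 fragment per base entered the test: 36551 of 36552 for MACS2 and 50783 of 58548 for SEACR. AA minus vehicle was fitted on log2(score + 0.109) in limma 3.58.1 (R 4.3.3), using its trend and robust options, with Benjamini-Hochberg adjustment over all tested peaks and a threshold of 0.05. The pseudocount is 1 step of the shallowest library, so a change understates that of weak peaks. It was fitted with the deposited scaling and after centring each library within 10 level bins of each place. Tables were joined in Python 3.11.15 with pandas 2.3.3, and the test was tried on simulated data.

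Genes and promoters were from RefSeq on GRCm38.p6: 21883 protein-coding genes, 17491 of them with a start in the promoter table. Peaks more than 1 kb from a gene end went to the smallest gene they overlap or the nearest gene within 50 kb, by distance only. Genes with no start entry, such as Ereg, were placed by their gene ends. A SEACR or other mark's peak was matched by an overlap of 1 bp.

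The text names, at gene ends, the 10 rises and 10 falls of largest size and elsewhere 5 and 5, among peaks called in both scalings and in SEACR, without predicted genes, plus called list members, at most 3 per list, and a set of 17 genes. Some genes chosen this way are not reported here. Genes outside this rule are said to come from the list of called peaks. The members, the gene lists and this rule were chosen with earlier results of these data known. Of 25 lists, those with no called member and not described stand at 0 higher and 0 lower in the relative comparison of MACS2 peaks: enterocyte fat uptake, goblet and Paneth, enteroendocrine and tuft cells, cell cycle, H3K4 methylation and Polycomb enzymes, basement membrane, sterol synthesis, oxidative stress, interferon, developmental Polycomb targets and housekeeping. In the overlapping SEACR peaks enterocyte fat uptake had 2 lower, basement membrane 4 higher and 1 lower, sterol synthesis 3 lower and oxidative stress 2 higher.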

Additional observations from a re-analysis of the deposited data

How the results depend on the processing

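The relative calls, 63 higher and 62 lower, numbered 0 and 0 at a threshold of 0.01 and 0 and 0 without limma's trend and robust options. With the replicate number as a block they were 375 and 317; the numbers were not shown to pair the libraries, since same-numbered libraries deviated together with a correlation of 0.011, and the deposited counts with the block were 2957 higher and 481 lower. In SEACR peaks the relative calls were 448 higher and 360 lower. A pseudocount at the 5th percentile or a doubled one gave 40 and 40 higher, peaks above the median level 10 higher and 18 lower, quantile normalization 122 lower, and level bins without place 104 lower. Without 1 library the counts ran from 56 to 381 higher and from 17 to 373 lower.

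The deposited calls, 1895 higher and 387 lower, became 433 and 69 at the 0.01 threshold, 735 and 660 in SEACR peaks, 4293 and 657 with each library centred on its median, 128 and 256 after quantile normalization, and 0 and 0 without trend and robust, where 6097 had an unadjusted p under 0.05. Peaks above the median level gave 164 lower. Without 1 library they ran from 87 to 6638 higher and from 6 to 1876 lower. The gene-end median of 0.27 was 0.136 in SEACR peaks and 0.0473 after quantile normalization. The 92 calls shared by both peak sets were 0 at the 0.01 threshold and 9 with a reciprocal overlap of 50%.

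For the 35 called named peaks no sign turned in the 570 values under these alternatives, of which 421 passed. The groups did not overlap at any of these called peaks, so their sign could hardly turn, and an unchanged sign is no test of them. The median of the fetal-like list ran from 0.0971 to 0.664. AA libraries were the shallower, so weak peaks in AA rest on few fragments. The causes were not tested.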
